A study of Mus musculus with 7 samples.

Results

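Cholesterol synthesis and the SREBP2 pathway were described in mouse liver by 31 genes, found by their symbols among the 23347 genes of the liver table. They comprise 19 enzymes of cholesterol synthesis and its prenyl diphosphate branch point, 6 genes for SREBP2 and the proteins that process it, and 6 genes for the uptake, transport and storage of sterols. The list does not hold every gene of the pathway, and all 31 symbols were found. RNA came from the livers of 7 male C57BL/6 mice, 1 library per mouse, all fed from 6 to 8 weeks of age for 15 weeks on a choline-deficient high-fat diet with defined amino acids (CDAHFD), which induces steatohepatitis in mice. Of these mice, 4 were B4galt1 flox/flox littermate controls, which the sample labels call WT, and 3 were labelled B4-HKO, that is B4galt1 hep-/-. Both groups carry B4galt1, which encodes a Golgi galactosyltransferase, as a floxed allele. The hep-/- genotype adds Cre driven by the albumin promoter (Alb-Cre), which removes the gene from hepatocytes and leaves it in other liver cells. The controls are not described as carrying Alb-Cre, so the presence of Cre and the loss of the gene cannot be told apart, and chow-fed mice were not analysed here.

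Cholesterol is built from acetyl-CoA through mevalonate, the prenyl diphosphates, squalene and lanosterol. When the endoplasmic reticulum holds little sterol, SCAP carries the precursor of the transcription factor SREBP2 to the Golgi, where a pair of proteases cuts it, and the released part raises transcription of most enzymes of the pathway. When sterol is plentiful, INSIG proteins hold SCAP back in the endoplasmic reticulum and the enzymes' transcripts fall. The liver is a main site of this synthesis and of the handling of cholesterol taken up from lipoproteins.

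The B4galt1 flox/flox libraries held 37838654 to 39668509 counts and those labelled B4galt1 hep-/- 30608271 to 34586588, and 3 counts equal 0.0690 to 0.0987 CPM, the TMM-normalized counts per library size used throughout. Mitochondrially encoded transcripts took 3.88% to 7.996% of the counts in the first group and 14.4% to 22.6% in the second. B4galt1 itself was at 48.7, 53.0, 49.2 and 51.6 CPM in B4galt1 flox/flox replicates 1 to 4 and at 28.4, 23.9 and 53.7 CPM in replicates 1 to 3 labelled B4galt1 hep-/-. Its level in replicate 3 labelled B4galt1 hep-/- was above all the controls, and it did not pass the test between groups (log2 fold change -0.52, standard error 0.26, edgeR adjusted p = 0.181). The libraries are therefore named by their labels throughout. Hepatocyte transcripts were abundant in every liver, where 5 markers summed to 79570 to 118700 CPM in the controls and 93303 to 144880 CPM in those labelled B4galt1 hep-/-, and 1 of the 5, Cyp2e1, fell (log2 fold change -1.32, edgeR adjusted p = 0.0145). The other 4 were not called and lay above 0, with log2 fold changes of 0.29 for Alb, 0.43 for Ttr, 0.61 for Serpina1a and 0.70 for Apoa1, whose groups did not overlap.

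Transcripts of 10 members fell in the livers labelled B4galt1 hep-/-, among them the enzymes Idi1, Msmo1, Hsd17b7 and Fdft1, Srebf2 itself and the storage enzyme Soat1. One member, Insig2, rose. The other 19 of the 30 members with enough counts to be tested did not pass, where a gene was called if its log2 fold change exceeded 0.58 in either direction at an adjusted p under 0.05. Over all 15179 genes tested, 7.83% were called lower and 8% higher. The log2 fold change, given throughout as B4galt1 hep-/- over B4galt1 flox/flox, was below zero for 27 of the 30 members, with a median of -0.42. Over all genes tested it was below zero for 7387, with a median of 0.02. In 11 members every liver labelled B4galt1 hep-/- was below every B4galt1 flox/flox liver, against 15% of all genes, and in 1 member every such liver was above, against 13.6%. The remaining member, Npc1l1, which encodes a sterol importer of the gut, had no count in 5 of the 7 livers and at most 0.151 CPM, and was not tested.

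**Figure D1:**
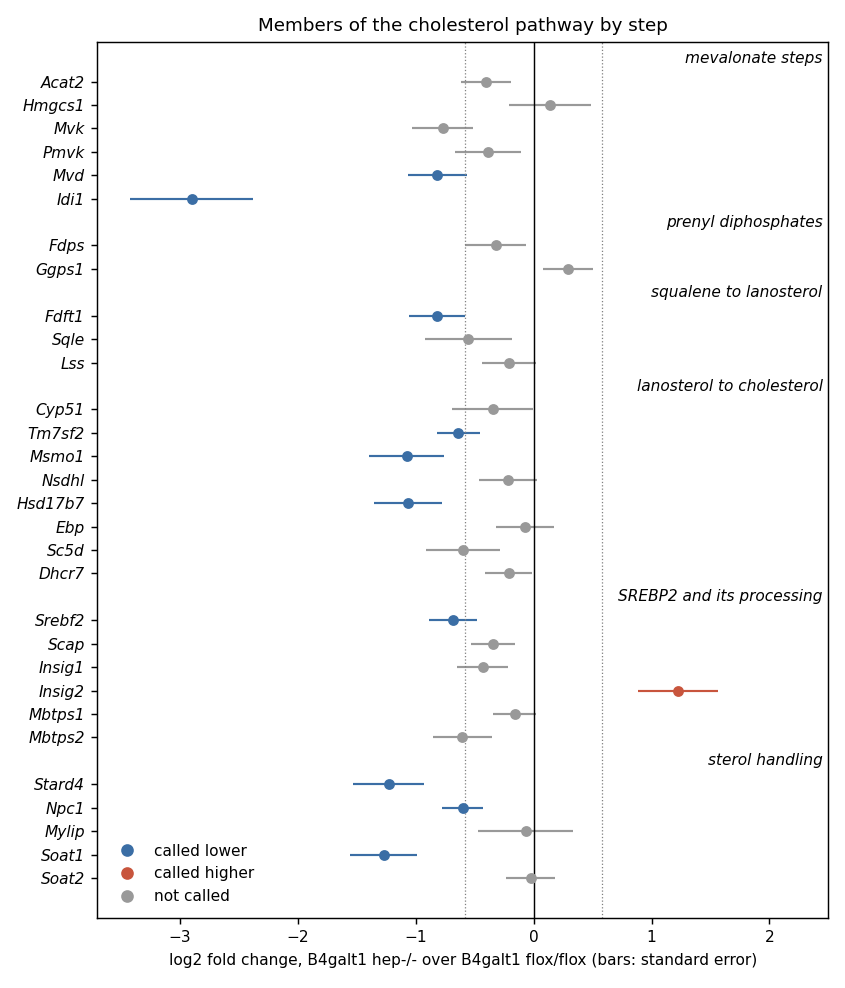
Log2 fold change of each tested member (horizontal axis, B4galt1 hep-/- over B4galt1 flox/flox, n = 3 and n = 4 mice) by pathway step, with bars for the standard error and dotted lines at the fold change threshold of 0.58 in either direction. The 10 members called lower are blue, Insig2, called higher, is red, and the 19 that were not called are grey, with Idi1 far to the left at -2.90.

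The count of calls depended on single livers. With all livers, 36.7% of the 30 tested members and 15.8% of all genes were called. Replicate 3 labelled B4galt1 hep-/- had a B4galt1 level above all the controls. Without this liver, 7 members were called, all lower, which is 23.3% of the members beside 13.8% of all genes. Without B4galt1 flox/flox replicates 1, 2, 3 and 4 there were 6, 2, 4 and 4 calls, or 20%, 6.67%, 13.3% and 13.3% of the members, beside 16.1%, 5.9%, 9.36% and 10.3% of all genes. Without replicates 1 and 2 labelled B4galt1 hep-/- there were 7 and 4, or 23.3% and 13.3%, beside 11.7% and 7.76% of all genes. Without any 1 of the B4galt1 flox/flox livers the share among the members was only a little above that of all genes. The 2 shares were nearest without replicate 2. The median log2 fold change over the members was below zero in each of these fits, between -0.60 and -0.28.

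The mevalonate steps held the largest decrease among the members. Of their 6 genes, Mvd and Idi1 fell and the other 4 did not pass the test. Idi1 encodes the isomerase that interconverts isopentenyl and dimethylallyl diphosphate. Its level was 13.5, 40.8, 39.6 and 14.0 CPM in B4galt1 flox/flox replicates 1 to 4 and 4.93, 1.45 and 4.47 CPM in replicates 1 to 3 labelled B4galt1 hep-/-. Replicates 2 and 3 of the B4galt1 flox/flox livers were high and replicates 1 and 4 low, and all 4 lay above the other group. Idi1 fell to 13.4% of its level in B4galt1 flox/flox livers (log2 fold change -2.90, standard error 0.52, edgeR adjusted p = 0.00691). It passed in each of the 18 alternative fits, 7 of which left out a liver, with log2 fold changes from -3.21 to -2.19. In the GENCODE transcripts of GRCm38, 25.3% of its stretches of 50 bases also occur in other genes, Gm13502 and Gm48574 among them, and how reads shared between genes were counted is not given in the sources used here.

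Mvd encodes the decarboxylase that makes isopentenyl diphosphate from mevalonate diphosphate. It was measured at 9.17, 8.18, 6.89 and 8.39 CPM in B4galt1 flox/flox livers and at 5.03, 3.47 and 5.39 CPM in livers labelled B4galt1 hep-/-, with no overlap between groups. The log2 fold change of Mvd was -0.82 (standard error 0.25, edgeR adjusted p = 0.0465), close to the threshold. It did not pass with any 1 of the 7 livers left out, with log2 fold changes from -0.95 to -0.65 and edgeR adjusted p from 0.0511 to 0.137. With all livers the call was also lost under upper-quartile normalization (edgeR adjusted p = 0.0537) and with genes of at least 1 count in any mouse tested (edgeR adjusted p = 0.0545).

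The other genes of these steps overlapped between groups. Mvk, mevalonate kinase, had a log2 fold change of -0.77 (edgeR adjusted p = 0.0622), and it passed in 5 of the 18 alternative fits, among them DESeq2 (-0.76) and the fit without replicate 1 labelled B4galt1 hep-/- (-1.05). Acat2, the cytosolic thiolase that makes acetoacetyl-CoA, had a log2 fold change of -0.40, and 39.1% of its stretches of 50 bases also occur in Acat3 or Tcp1. Pmvk, phosphomevalonate kinase, was at -0.39. Hmgcs1, the synthase that makes the HMG-CoA from which mevalonate is formed, lay between 131 and 305 CPM in the controls and between 146 and 361 CPM in the other group. Its log2 fold change of 0.14 had a 95% confidence interval from -0.62 to 0.89, and the sign turned in the fits on FPKM (-0.03) and without B4galt1 flox/flox replicate 1 (-0.03) or replicate 1 labelled B4galt1 hep-/- (-0.36). The ratio of Idi1 to Hmgcs1 CPM within a liver was 0.103, 0.134, 0.237 and 0.0602 in B4galt1 flox/flox livers and 0.0137, 0.00990 and 0.0246 in livers labelled B4galt1 hep-/-. This ratio is a description and was not tested.

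Neither enzyme of prenyl diphosphate synthesis was called. Fdps, which makes farnesyl diphosphate, the last precursor shared with the non-sterol branches, was at -0.32, with a 95% confidence interval from -0.89 to 0.24, and 26.7% of its exon bases lie in exons of Gm43738 on the same strand. Ggps1, which makes geranylgeranyl diphosphate, was at 0.29, with an interval from -0.17 to 0.76.

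From squalene to lanosterol, Fdft1 fell, while Sqle and Lss did not pass. Fdft1 encodes squalene synthase, the first enzyme committed to sterols. Levels of Fdft1 were 74.6, 109.65, 75.3 and 104 CPM in B4galt1 flox/flox livers and 67.3, 38.3 and 49.0 CPM in livers labelled B4galt1 hep-/-. The groups did not overlap, and the highest of the second group lay just under the lowest of the first. Its log2 fold change was -0.82 (standard error 0.24, edgeR adjusted p = 0.0401). The call was lost without B4galt1 flox/flox replicates 2 (-0.72), 3 (-0.90) or 4 (-0.75) and without replicates 2 (-0.65) or 3 (-0.79) labelled B4galt1 hep-/-. In the GENCODE annotation of GRCm38, 18.3% of the exon bases of Fdft1 lie antisense to exons of Ctsb, the lysosomal protease cathepsin B, which fell in the same livers (log2 fold change -1.09, edgeR adjusted p = 0.0120). Whether reads were counted by strand is not given in the sources used here, and the part of Ctsb reads in the counts of Fdft1 was not tested. Sqle, squalene epoxidase, was at -0.55 and Lss, lanosterol synthase, at -0.21.

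The 8 enzymes that turn lanosterol into cholesterol had log2 fold changes below zero, and 3 of them fell. Msmo1 encodes the oxidase that starts removal of the C4 methyl groups. It was at 82.8, 153, 109.7 and 131 CPM in B4galt1 flox/flox livers and at 70.8, 28.9 and 69.9 CPM in livers labelled B4galt1 hep-/-. The groups did not overlap, and replicate 2 labelled B4galt1 hep-/- was the lowest. The log2 fold change of Msmo1 was -1.08 (standard error 0.32, edgeR adjusted p = 0.0413). Its call was lost without B4galt1 flox/flox replicates 2 (-0.94), 3 (-1.11) or 4 (-1.03) and without replicate 2 labelled B4galt1 hep-/- (-0.76).

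Hsd17b7 encodes the sterol 3-keto reductase of the same demethylation. Its levels were 66.8, 103, 66.7 and 79.1 CPM in B4galt1 flox/flox livers and 37.1, 21.9 and 53.9 CPM in livers labelled B4galt1 hep-/-, again without overlap. Hsd17b7 fell by 1.07 on the log2 scale (standard error 0.29, edgeR adjusted p = 0.0302), a call lost without B4galt1 flox/flox replicates 2 (-0.92) or 4 (-1.07) and without replicates 1 (-1.08) or 2 (-0.79) labelled B4galt1 hep-/-. Tm7sf2 encodes a sterol C14 reductase. It was at 32.7, 29.8, 33.1 and 29.9 CPM in B4galt1 flox/flox livers and at 17.6, 18.3 and 24.5 CPM in livers labelled B4galt1 hep-/-. The controls lay close together and above the other group, and Tm7sf2 fell by 0.64 on the log2 scale (standard error 0.18, edgeR adjusted p = 0.0357). It passed without replicate 3 labelled B4galt1 hep-/- (-0.82), and in the 6 fits without another liver it did not, with log2 fold changes from -0.67 to -0.57. Exons of Vps51 on the same strand cover 12.1% of its exon bases in GENCODE, and Vps51 was at 0.09 and not called.

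The remaining 5 enzymes of these steps overlapped between groups and were not called. Sc5d, the sterol C5 desaturase, had the largest difference of them, a log2 fold change of -0.60 with a 95% confidence interval from -1.28 to 0.08. Cyp51, the lanosterol demethylase, was at -0.35, Nsdhl, a sterol dehydrogenase, at -0.22, and Dhcr7, the reductase of 7-dehydrocholesterol, at -0.21. Ebp, the sterol isomerase, was at -0.08, and its sign turned without B4galt1 flox/flox replicate 4 (0.08) or replicate 2 labelled B4galt1 hep-/- (0.12).

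**Figure D2:**
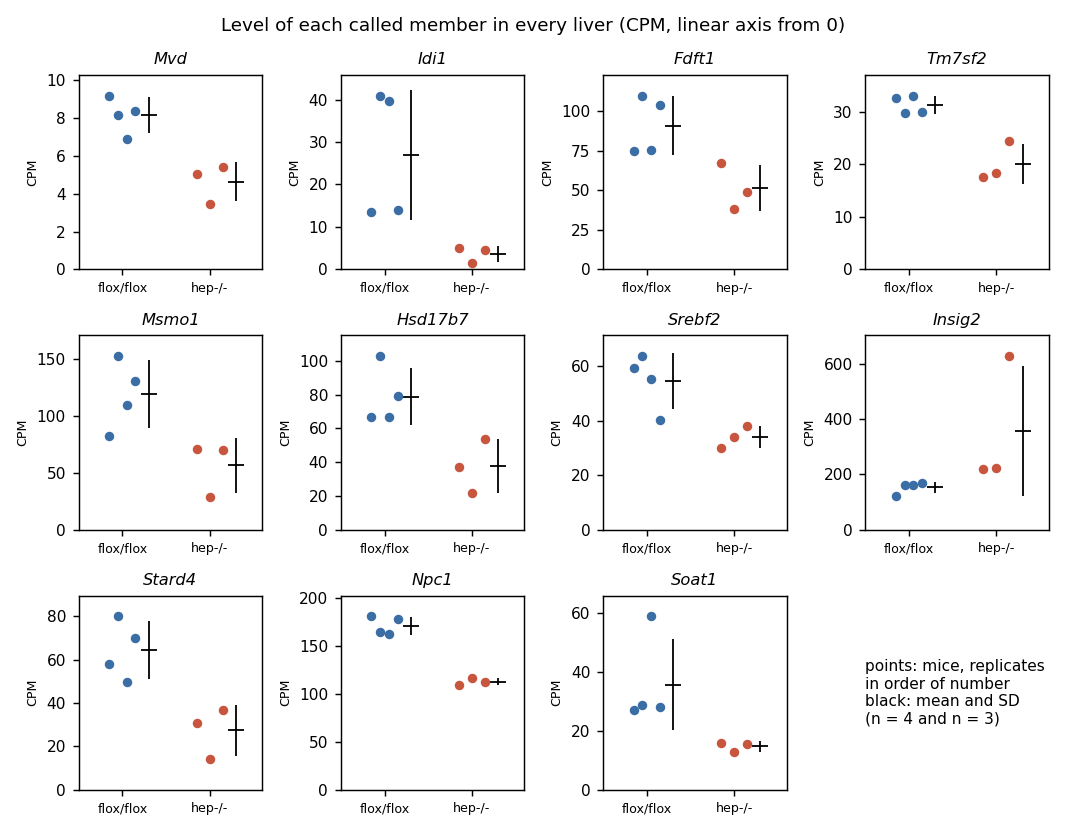
CPM (vertical axis, linear from 0) of the 11 called members in each of the 4 B4galt1 flox/flox livers (blue) and 3 livers labelled B4galt1 hep-/- (red), with the mean and SD of each group in black. The groups do not overlap in any panel, and the highest point of Insig2, at 627 CPM, and of Soat1, at 58.8 CPM, each belongs to 1 liver that stands apart from its group.

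Among the regulators, the transcript of SREBP2 itself fell and that of 1 of its 2 INSIG anchors rose. Srebf2, which encodes SREBP2, was at 59.5, 63.7, 55.4 and 40.2 CPM in B4galt1 flox/flox livers and at 29.97, 33.9 and 38.3 CPM in livers labelled B4galt1 hep-/-. The groups did not overlap, with replicate 4 of the B4galt1 flox/flox livers nearest to the others. Srebf2 fell to 62.2% of its control level (log2 fold change -0.68, standard error 0.20, edgeR adjusted p = 0.0413). Its call was lost without B4galt1 flox/flox replicates 1 (-0.64), 2 (-0.61) or 3 (-0.68) and without replicates 1 (-0.61) or 2 (-0.68) labelled B4galt1 hep-/-, and in limma on log2(FPKM + 1) of all genes above 0 (-0.70, adjusted p = 0.0983). Counts of mRNA do not show how much SREBP2 protein is cut and enters the nucleus.

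Insig2 was at 121, 159.6, 161 and 168 CPM in B4galt1 flox/flox livers and at 219.7, 223 and 627 CPM in livers labelled B4galt1 hep-/-. Each of the 3 livers lay above every control, and replicate 3, the liver with the high B4galt1 level, lay far above the other 2. Insig2 rose by a log2 fold change of 1.23 (standard error 0.34, edgeR adjusted p = 0.0327). Without replicate 3 labelled B4galt1 hep-/- the log2 fold change was 0.53 and not called, and the call was also lost without B4galt1 flox/flox replicate 1 (1.13), 2 (1.24), 3 (1.25) or 4 (1.28) and in limma on log2(FPKM + 1) of all genes above 0 (0.90, adjusted p = 0.164).

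Insig1, the INSIG gene that SREBP2 itself induces, was at 94.0, 117, 107 and 132 CPM in B4galt1 flox/flox livers and at 106, 64.5 and 79.6 CPM in livers labelled B4galt1 hep-/-. Its groups overlapped, and its log2 fold change of -0.43 did not pass (edgeR adjusted p = 0.189). The ratio of Insig2 to Insig1 CPM was 1.29, 1.36, 1.51 and 1.27 in B4galt1 flox/flox livers and 2.07, 3.46 and 7.88 in livers labelled B4galt1 hep-/-. This ratio was higher in each of the latter 3, and it is given as a description, without a test.

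Scap, the sterol-sensing escort of SREBP2, was at 85.1, 79.6, 67.2 and 67.8 CPM in B4galt1 flox/flox livers and at 49.5, 63.9 and 63.4 CPM in livers labelled B4galt1 hep-/-. The groups did not overlap, but the log2 fold change of -0.35 did not pass (95% confidence interval from -0.75 to 0.06, edgeR adjusted p = 0.216). In the same annotation 13.2% of the exon bases of Scap lie antisense to 5830462I19Rik, and 12.1% of those of Hmgcs1 antisense to Gm48342. Of the 2 Golgi proteases, Mbtps1 (site-1 protease) was at -0.16 and Mbtps2 (site-2 protease) at -0.61 (edgeR adjusted p = 0.115), both with overlapping groups. Exons of Mbtps2 share 28.4% of their bases with Yy2 on the same strand in the GENCODE annotation of GRCm38.

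Of the 5 tested genes of sterol handling, Stard4, Npc1 and Soat1 fell. Stard4 encodes a soluble protein that moves cholesterol between membranes and is itself a target of SREBP2. It was at 58.2, 80.0, 49.8 and 69.9 CPM in B4galt1 flox/flox livers and at 31.005, 14.4 and 37.0 CPM in livers labelled B4galt1 hep-/-, without overlap. Stard4 fell to 42.6% of its control level (log2 fold change -1.23, standard error 0.30, edgeR adjusted p = 0.0211), and its call was lost without B4galt1 flox/flox replicate 2 alone (-1.12, edgeR adjusted p = 0.0622).

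Npc1, which exports cholesterol from lysosomes, was at 181, 164, 162 and 177 CPM in B4galt1 flox/flox livers and at 109, 116 and 112 CPM in livers labelled B4galt1 hep-/-. Both groups were tight and far apart, at 171 ± 9.41 (SD, n = 4) and 113 ± 3.48 CPM (SD, n = 3). The log2 fold change was -0.60 (standard error 0.17, edgeR adjusted p = 0.0367), just past the fold change threshold. It was not called without any 1 of the 7 livers, with log2 fold changes from -0.63 to -0.57 and edgeR adjusted p from 0.0602 to 0.0951. With all livers, Npc1 missed the fold change threshold under upper-quartile normalization (-0.57) and the adjusted p threshold when genes of at least 1 count in any mouse were tested (edgeR adjusted p = 0.0633).

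Soat1, which esterifies cholesterol for storage in most cells, was at 27.2, 28.7, 58.8 and 28.0 CPM in B4galt1 flox/flox livers and at 16.0, 12.7 and 15.6 CPM in livers labelled B4galt1 hep-/-. Replicate 3 of the B4galt1 flox/flox livers stood far above the other 3 controls, and the groups did not overlap. Soat1 fell to 41.4% of its control level (log2 fold change -1.27, standard error 0.29, edgeR adjusted p = 0.0150), and leaving out any 1 liver kept the call, with -0.92 without B4galt1 flox/flox replicate 3. The call was lost in limma on log2(FPKM + 1) of all genes above 0 (-1.09, adjusted p = 0.0657). Soat2, the corresponding enzyme of hepatocytes and gut, was at 32.6, 30.6, 24.1 and 26.8 CPM in B4galt1 flox/flox livers and at 29.0, 34.4 and 20.6 CPM in livers labelled B4galt1 hep-/-. Here the log2 fold change of -0.03 had a 95% confidence interval from -0.48 to 0.43, with a sign that turned under upper-quartile normalization (0.02) and without B4galt1 flox/flox replicates 1 (0.05) or 2 (0.01) or replicate 3 labelled B4galt1 hep-/- (0.14). Mylip, which encodes a ligase that marks lipoprotein receptors for degradation, was at -0.07, and without B4galt1 flox/flox replicate 3, at 33.9 CPM against 9.03 to 11.2 CPM in the other 3 controls, it was at 0.59 (edgeR adjusted p = 0.0832).

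Markers of macrophages fell in the same livers as Soat1, Npc1 and a pair of other lysosomal genes. Of 6 macrophage markers, 5 fell, Lyz2, Adgre1, Gpnmb, Cd68 and Trem2. The remaining marker, Clec4f, was at -0.47 with overlapping groups and did not pass (edgeR adjusted p = 0.251). Summed, the 6 markers reached 1253 to 3041 CPM in the controls, with the highest value in replicate 3, and 538 to 657 CPM in livers labelled B4galt1 hep-/-. A pair of lysosomal genes outside the 31 members also fell and had their highest value in replicate 3. Npc2, which hands cholesterol to NPC1, was at 137, 136, 220.1 and 137 CPM in B4galt1 flox/flox livers and at 72.5, 48.3 and 73.3 CPM in the others (log2 fold change -1.28, edgeR adjusted p = 0.00895). Lipa, the lysosomal lipase that frees cholesterol from its esters, was at 219, 279, 382 and 207 CPM against 119, 78.6 and 112 CPM (log2 fold change -1.40, edgeR adjusted p = 0.00815). In whole liver, fewer cells of a type and less RNA per cell cannot be told apart, and the part of macrophages in the results for Soat1, Npc1, Npc2 and Lipa was not tested. The 5 endothelial markers summed to 259 CPM in B4galt1 flox/flox replicate 3 and to between 64.8 and 106 CPM in the other 6 livers, and 1 of the 5, Kdr, fell (log2 fold change -1.33, edgeR adjusted p = 0.0441).

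**Figure D3:**
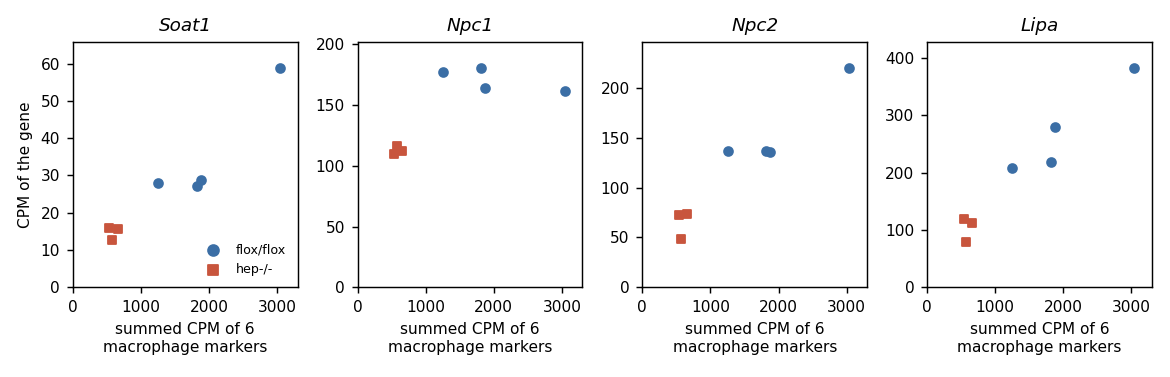
CPM of Soat1, Npc1, Npc2 and Lipa (vertical axes, linear from 0) against the summed CPM of 6 macrophage markers (horizontal axes) in 4 B4galt1 flox/flox livers (blue circles) and 3 livers labelled B4galt1 hep-/- (red squares). The liver at 3041 CPM of markers has the highest Soat1, Npc2 and Lipa, while its Npc1 level, 162 CPM, is the lowest of the 4 controls.

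The enzymes of synthesis were not evenly low over the livers labelled B4galt1 hep-/-. In 18 of the 19 enzymes the lowest of these 3 livers was replicate 2, against 39.2% of all genes tested. In 13 of the 19 the highest of the 4 B4galt1 flox/flox livers was replicate 2, against 15.9% of all genes. The median over the 19 enzymes of the log2 ratio to the B4galt1 flox/flox mean was -0.25, 0.34, -0.17 and -0.08 in B4galt1 flox/flox replicates 1 to 4 and -0.29, -1.12 and -0.30 in replicates 1 to 3 labelled B4galt1 hep-/-. Replicates 1 and 3 labelled B4galt1 hep-/- were close to B4galt1 flox/flox replicate 1 by this measure, and replicate 2 was far below every other liver. Genes of one pathway are not independent replicates of a difference between mice. The fit without replicate 2 labelled B4galt1 hep-/- called 4 members, and the fit without B4galt1 flox/flox replicate 2 called 2.

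**Figure D4:**
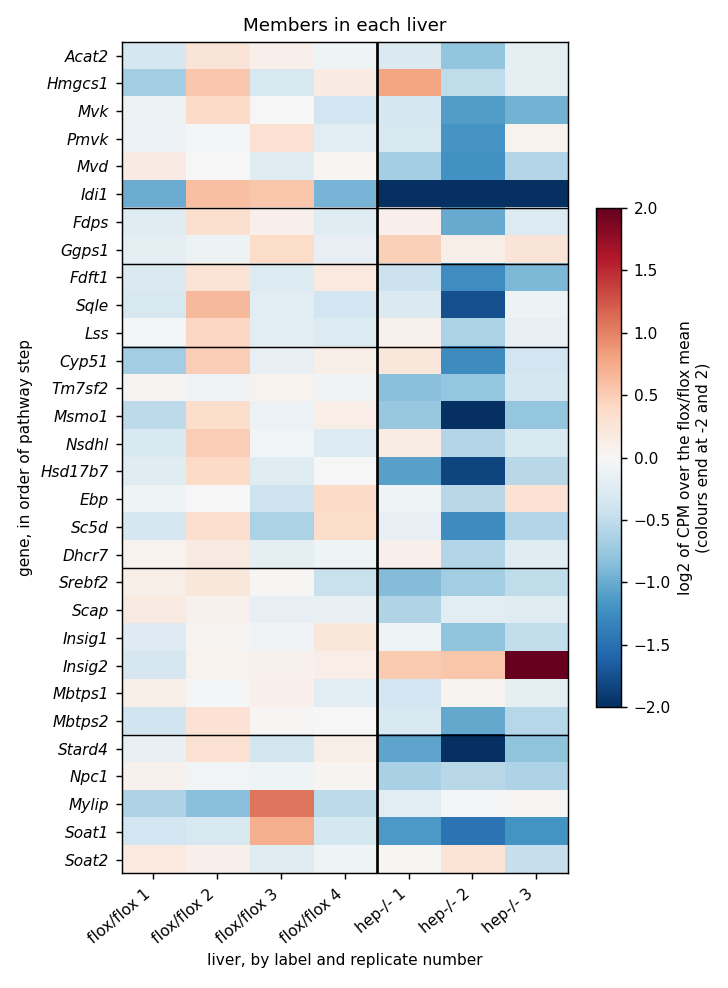
Log2 of the CPM in each liver (columns, 4 B4galt1 flox/flox and 3 labelled B4galt1 hep-/-) over the B4galt1 flox/flox mean for the 30 tested members (rows, in order of pathway step), with colours ending at -2 and 2. Replicate 2 labelled B4galt1 hep-/- is blue through most enzymes, Idi1 is at the lowest colour in each of the 3 livers labelled B4galt1 hep-/-, and Insig2 is red in these 3.

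Per base of transcript, the enzymes spanned a wide range of levels. FPKM, the count scaled to transcript length and library total, was lowest for Ggps1 (1.65 ± 0.393, SD, n = 4) and highest for Ebp (74.6 ± 12.3) in B4galt1 flox/flox livers. Msmo1 (52.6 ± 10.4), Sc5d (52.3 ± 13.8) and Hmgcs1 (50.7 ± 16.1) came next below Ebp, and these 3 did not differ beyond their spread. Idi1 was at 9.79 ± 5.58 FPKM in B4galt1 flox/flox livers and at 1.16 ± 0.537 FPKM (SD, n = 3) in livers labelled B4galt1 hep-/-, where it was the lowest of the 19 enzymes. FPKM divides by a total that includes the mitochondrial transcripts, so differences between groups are given from the counts.

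Of 46 other genes of sterol and lipid pathways, 9 fell and 4 rose, and their median log2 fold change was -0.30. Over all genes tested 7.83% fell and 8% rose, so that the count of those that rose was near the share of all genes. Of 7 genes for sterol sensing and the degradation of its enzymes, Tmem97, a sterol-responsive membrane protein that binds NPC1, fell (-1.22, edgeR adjusted p = 0.00943). Of 6 that supply electrons or assist the enzymes, Cyb5b, a cytochrome b5 of the outer mitochondrial membrane, fell (-1.17), while Por, the reductase that feeds CYP51 and squalene epoxidase, was at -0.34 and did not pass. Of 10 genes of the isoprenoid branch, Dhdds, which makes dolichol precursors, fell (-0.77), and the prenyltransferase subunits Pggt1b (0.69) and Rabggtb (0.72) rose. Of 9 genes of lysosomal and contact-site transport, 3 fell and 2 rose, among them Gramd1a (1.13) and Gramd1c (0.85), which encode proteins that carry cholesterol from the plasma membrane to the endoplasmic reticulum. Of 6 genes of LXR and efflux, Abcg8, a subunit of the transporter that secretes sterols into bile, fell (-0.74), while its partner Abcg5 was at 0.17 and did not pass. Of 8 genes of SREBP1 and fatty acid synthesis, Acly (-1.04) and Acss2 (-0.96), which make cytosolic acetyl-CoA, fell, and Srebf1 was at -0.13 and did not pass.

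Promoters are shown for the called members with the largest fold changes among those with an entry, for Srebf2, and for Hmgcs1, which was added after its motif was seen. RefSeq's table for GRCm38.p6 held entries for 25 of the 31 members, 8 of them called and not including the called Stard4, Fdft1 and Npc1, and the 250 bases before each transcription start were searched on both strands for the core of the sterol regulatory element (TCACNCCAC, with N any base), the CCAAT box (CCAAT) and the GC box (GGGCGG). These 3 are the sites that SREBP2 and its partners NF-Y and Sp1 are known to bind. Each sequence runs from 5′ to 3′ and stops before the first base that GENCODE gives to an exon of the gene, with matches to any of the 3 motifs or to their reverse complements in capitals. Msmo1 is left out because less than 100 bases remained, and of the 3 entries of Insig2 the farthest upstream is shown. The stretches are chr13:8885356-8885500 (plus strand) for Idi1, chr8:122443423-122443672 (minus strand) for Mvd, chr1:169969242-169969455 (minus strand) for Hsd17b7, chr13:119690101-119690350 (plus strand) for Hmgcs1, chr15:82147019-82147180 (plus strand) for Srebf2, chr1:121332590-121332839 (minus strand) for Insig2 and chr1:156474332-156474578 (minus strand) for Soat1.
Idi1: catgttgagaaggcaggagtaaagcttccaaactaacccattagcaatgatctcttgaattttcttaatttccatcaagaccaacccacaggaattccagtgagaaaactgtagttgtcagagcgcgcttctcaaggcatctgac
Mvd: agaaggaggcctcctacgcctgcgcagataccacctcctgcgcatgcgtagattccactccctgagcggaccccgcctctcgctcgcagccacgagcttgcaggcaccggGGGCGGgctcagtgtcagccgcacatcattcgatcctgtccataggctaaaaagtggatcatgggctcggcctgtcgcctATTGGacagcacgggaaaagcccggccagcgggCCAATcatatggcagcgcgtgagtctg
Hsd17b7: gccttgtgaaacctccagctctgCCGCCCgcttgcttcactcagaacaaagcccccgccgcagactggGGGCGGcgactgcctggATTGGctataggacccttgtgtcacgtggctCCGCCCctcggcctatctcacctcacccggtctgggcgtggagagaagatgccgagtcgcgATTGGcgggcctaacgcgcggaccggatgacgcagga
Hmgcs1: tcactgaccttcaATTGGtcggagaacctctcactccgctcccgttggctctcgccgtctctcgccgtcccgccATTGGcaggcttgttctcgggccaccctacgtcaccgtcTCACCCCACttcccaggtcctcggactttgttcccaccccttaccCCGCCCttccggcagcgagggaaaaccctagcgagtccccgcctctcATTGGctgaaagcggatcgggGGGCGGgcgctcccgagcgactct
Srebf2: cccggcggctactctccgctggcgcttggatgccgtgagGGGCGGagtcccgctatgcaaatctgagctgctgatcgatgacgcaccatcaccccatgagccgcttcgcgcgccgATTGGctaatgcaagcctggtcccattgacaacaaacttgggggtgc
Insig2: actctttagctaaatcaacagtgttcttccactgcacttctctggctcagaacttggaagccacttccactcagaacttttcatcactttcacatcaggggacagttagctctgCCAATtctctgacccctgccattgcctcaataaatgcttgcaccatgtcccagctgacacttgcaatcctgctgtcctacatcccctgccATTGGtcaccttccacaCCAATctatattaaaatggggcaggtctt
Soat1: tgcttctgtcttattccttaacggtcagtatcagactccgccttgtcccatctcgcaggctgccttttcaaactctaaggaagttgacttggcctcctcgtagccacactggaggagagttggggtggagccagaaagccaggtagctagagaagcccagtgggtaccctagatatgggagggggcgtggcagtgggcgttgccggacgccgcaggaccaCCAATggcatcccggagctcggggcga

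The CCAAT box stood in 21 of the 25 members with an entry and in 37.5% of the 27025 genes of the table, and the GC box in 20 members and in 35.4% of genes, over the whole 250 bases and any entry of a gene. All 7 members called lower that have an entry held a CCAAT box, and 12 of the 16 that were not called did. The core of the sterol regulatory element stood in Hmgcs1 only, of the 25 members, and in 331 of 27025 genes. Within the printed stretches Mvd holds 2 CCAAT boxes and 1 GC box, Hsd17b7 2 and 3, Srebf2 1 and 1, Insig2 3 and 0, and Soat1 1 and 0. The 145 printed bases of Idi1 hold none, and its 2 CCAAT boxes and 1 GC box lie in the following 105 bases. Hmgcs1, with the sterol element core, 3 CCAAT boxes and 2 GC boxes, had the log2 fold change of 0.14 that was not called. Only the stated letters of the core were searched, and only in these 250 bases. A member without a match is therefore not shown to lack a sterol regulatory element. A match of letters is a description and not evidence of binding.

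**Figure D5:**
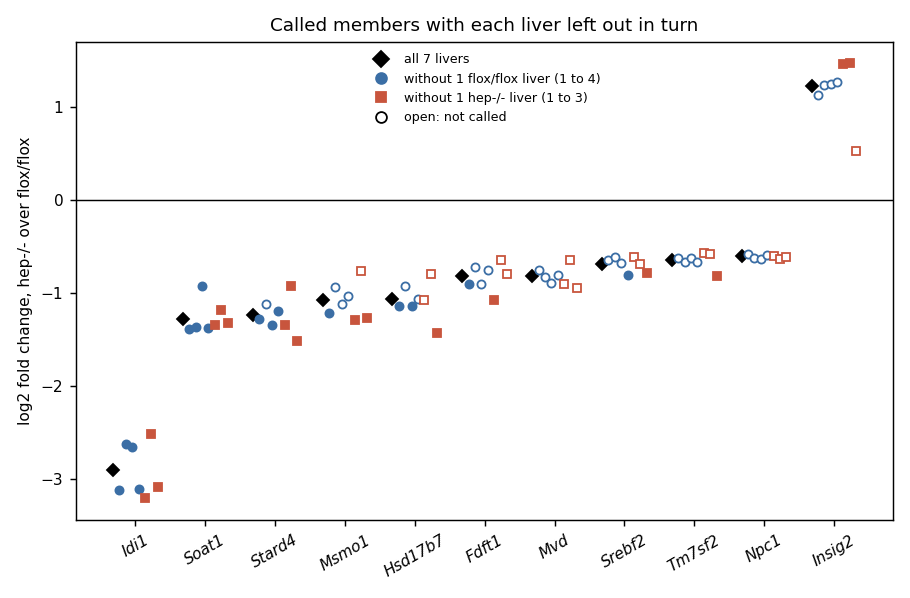
Log2 fold change of the 11 called members with all 7 livers (black diamonds) and with each liver left out in turn (blue circles, B4galt1 flox/flox replicates 1 to 4, and red squares, replicates 1 to 3 labelled B4galt1 hep-/-), filled where called. Idi1 and Soat1 are filled in each of the 7 fits, Stard4 in 6, and Mvd and Npc1 in none, while no gene changes direction.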

How the data were processed

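Liver RNA of 7 CDAHFD-fed mice was analysed, 4 B4galt1 flox/flox (labelled WT) and 3 labelled B4galt1 hep-/-, grouped by sample title. That each library is a separate mouse rests on the labels, and none of the 21 library pairs agreed within sampling noise. The authors used TRIzol and a VAHTS Universal library kit and deposited raw counts per gene. They also deposited FPKM values, which within each gene were proportional to the count over library total within 1% for 13374 genes. The gene lengths behind the FPKM values were not checked. The submitters' processing notes name fastp, HISAT2, HTSeq, DESeq2, R 3.2.0 and GRCm39, and the annotation is not given in the sources used here.

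Genes were kept by filterByExpr (minimum count 10, minimum total 15), which left 15179 of 23347. The quasi-likelihood F-test of edgeR 4.0.16 (R 4.3.3) compared the groups after TMM scaling, with Benjamini-Hochberg adjustment over all genes tested. The thresholds were those of the study, which used DESeq2, an adjusted p of 0.05 and a log2 fold change of 0.58 in either direction. The standard error came from the F statistic. CPM are TMM-normalized, and log2 ratios used CPM + 0.1. The test was run on simulated data first.

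The members and gene lists were chosen with earlier results of these data known. The text names all members, with values per mouse for called members, members whose groups do not overlap, Srebf2, Scap, Insig1, Insig2, Soat1 and Soat2, and up to 4 called genes of each other list. Por, Abcg5, Srebf1, Ctsb, Vps51 and the named marker genes were chosen after their values were seen. The alternatives comprised RLE or upper-quartile scaling, DESeq2 1.42.0, no mitochondrially encoded genes (13), other count filters, limma 3.58.1 on FPKM with pseudocounts of 1 or 0.1, voom with quality weights, adjusted p alone, the replicate number as a block, and each mouse left out. Markers of stellate cells (6), cholangiocytes (5), lymphocytes (5) and neutrophils (3) gave no call. Promoter sequences came from RefSeq (GRCm38.p6) and shared transcript stretches from GENCODE vM21, whose build differs from that of the counts.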

Additional observations from a re-analysis of the deposited data

Results flagged for a closer look

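In the group of 4 B4galt1 flox/flox livers, the highest or lowest value stood apart by Dixon's ratio of gap to range for 7 of 55 values tested. Chance gives about 1 in 20 for independent, normally distributed values. The 55 values come from the same 4 livers and are not independent, so the 7 are given as a description. Replicate 3 was the one that stood apart in 6 of the 7. It had Soat1 at 58.8 CPM against at most 28.7 CPM in the other 3, Mylip at 33.9 CPM against at most 11.2, and Ggps1 at 15.1 CPM against at most 10.8. In the same liver Npc2 was at 220.1 CPM against at most 137, the summed endothelial markers at 259 CPM against at most 97.6, and the ratio of Soat1 to Soat2 at 2.44 against at most 1.05. Replicate 2 stood apart for Sqle, at 72.7 CPM against at most 39.7. The group of 3 livers was not tested in this way.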

How the results depend on the processing

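Idi1 was called in each of 18 alternative fits and Soat1 and Stard4 in 17. With the fold change condition dropped, the same number of members, 11, was called. Over all genes, 2404 calls became 1330 in limma on log2(FPKM + 1) of all genes above 0 and 885 to 2396 with 1 mouse left out. With 1 mouse left out, calls among the members ranged from 2 to 7 (11 with all mice), those called lower from 2 to 7, those called higher from 0 to 1, and calls in the other pathway lists from 7 to 11 (13 with all mice). Members called higher were also 0 in limma on all genes above 0. The FPKM fits lowered the median of all genes by 0.12 to 0.13 on the log2 scale, and 24.5%, 23.6% and 18.2% of their calls were higher against 50.5%. Relative to that shift, the members' median was -0.38, -0.44 and -0.38, and 26 of 30 lay below it. Log2 fold changes near zero turned sign. Hmgcs1 (0.14) was at -0.0251, -0.0261 and -0.0251 in the 3 FPKM fits and from -0.36 to 0.38 with a mouse left out. Ebp (-0.08) ranged from -0.31 to 0.12, Mylip (-0.07) was at 0.027 on log2(FPKM + 0.1), 0.41 in voom and -0.26 to 0.59, and Soat2 (-0.03) was at 0.0196 under upper-quartile normalization and -0.20 to 0.14. The causes were not tested. Each tested member had at least 48 counts in every mouse.

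The replicate numbers are shared by both groups, and deviations from the group means correlated at -0.44, -0.08 and 0.10 for numbers 1, 2 and 3. Between livers of unlike number the correlations ran from -0.37 (B4galt1 flox/flox replicate 4 with replicate 2 labelled B4galt1 hep-/-) to 0.58 (replicate 1 with replicate 2). These values cannot show whether the mice were paired. With the replicate block, 1267 genes, 3 members (Idi1, Stard4 and Soat1, all 3 lower and 0 higher) and 8 genes of the other lists were called, which is 10% of the members beside 8.35% of all genes, Ebp was at 0.048 and Mylip at 0.0621.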
